A study of Mus musculus with 6 samples.

Results

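The genes described here are the Adam, Adamts and Adamtsl genes of the mouse, chosen by name alone: every gene of the deposited table whose symbol is Adam, Adamts or Adamtsl followed by a number and at most 1 letter. There were 45 of them among 27366 features, namely 22 Adam, 18 Adamts and 5 Adamtsl genes. ADAM proteins are membrane-anchored enzymes with a metalloprotease and a disintegrin domain, and the active ones shed the outer parts of growth factors, cytokines and receptors from the cell surface. ADAMTS proteins are secreted relatives with thrombospondin repeats that process collagens and cut proteoglycans in the extracellular matrix. ADAMTSL proteins resemble the non-catalytic part of ADAMTS proteins, have no protease domain and bind matrix microfibrils. In skeletal muscle, Adam12 (meltrin alpha) is known from work on myoblast fusion, and several ADAMTS proteases clear versican from the matrix of differentiating myoblasts.

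The RNA came from cultured satellite cells, which are resident muscle stem cells of the mouse, taken on day 4 in medium with 20% serum and basic FGF. The labels give 3 control libraries and 3 Islr knockout libraries, numbered 1 to 3 in each group, and the series' design text adds that cells were separated by flow cytometry on whether Islr was present. No strain, age, allele, Cre driver or deletion step was named in the labels. Nothing says that the libraries of a group are separate animals or cultures, so the p-values below measure the spread between these libraries only. Each library held between 16456917 and 20531276 reads assigned to genes.

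Islr, the gene that the labels name, held 181.1, 12.8 and 1579 scaled reads in control libraries 1, 2 and 3, and 256.7, 7.4 and 10.9 in knockout libraries 1, 2 and 3. Scaled reads are the authors' values, reads divided by 1 size factor per library. The library labelled knockout 1 had more Islr than 2 of the controls, so groups are called here by their labels and every direction between them rests on those labels. Myogenic markers summed to between 51712 and 261060 scaled reads per library, and in both groups the sum was highest in number 1 and lowest in number 2. Myog, Des, Mymk and Myh3 each had that order, and Myf5, Cdh15 and Ckm had it in the knockouts at most. Pax7 and Myod1 were instead highest in number 2 of both groups. Pax7 had 1233, 2729 and 1634 in controls and 1558, 1667 and 1319 in knockouts. Myod1 had 24224, 33818 and 32136 against 20943, 24544 and 18888. In bulk RNA, fewer cells of a type and less RNA per cell cannot be told apart.

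The catalytic centre of these proteases is a short zinc-binding stretch in which 3 histidines hold the metal and a glutamate acts as the base. It is shown because it separates the members that can be proteases from those that cannot. Its 11 codons were searched in the longest coding transcript of each member (GENCODE M21, GRCm38). They were found in 13 of 22 Adam genes, in 18 of 18 Adamts genes and in 0 of 5 Adamtsl genes, against 75 of 21515 protein-coding genes (0.349%). Capitals mark the codons of the 3 histidines, of the glutamate and of the eighth residue, 5′ to 3′ on the coding strand.
Adam9: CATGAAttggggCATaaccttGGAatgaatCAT
Adam10: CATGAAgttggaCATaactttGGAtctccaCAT
Adam17: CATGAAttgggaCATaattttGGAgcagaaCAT
Adam12: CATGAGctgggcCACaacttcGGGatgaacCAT
Adam19: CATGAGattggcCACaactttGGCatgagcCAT
Adamts1: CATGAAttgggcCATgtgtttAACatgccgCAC
Adamts4: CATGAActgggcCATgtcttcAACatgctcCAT
Adamts5: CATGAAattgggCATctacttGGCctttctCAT
Adamts8: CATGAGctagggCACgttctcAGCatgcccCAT
Adamts12: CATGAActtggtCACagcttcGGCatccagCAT
Adamts14: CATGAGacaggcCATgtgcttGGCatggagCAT
Adamts20: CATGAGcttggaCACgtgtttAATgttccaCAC

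In Adam9 the stretch lies within exon 11 of the transcript, at chr8:24990326-24990358 on the minus strand. The stretch of Adam12 is at chr7:133961158-133961190 (minus strand), that of Adam17 at chr12:21336732-21336764 (minus strand) and that of Adam19 at chr11:46125050-46125082 (plus strand). The subfamilies differed in gene structure here: the stretch was within 1 exon in 12 of the 13 Adam genes that hold it, Adam10 being the exception, and ran across an exon junction in all 18 Adamts genes. The eighth residue was glycine in all 13 Adam genes and in 12 Adamts genes. It was asparagine in 5 Adamts genes (Adamts1, Adamts4, Adamts9, Adamts15 and Adamts20) and serine in Adamts8. Of the 33 bases, 30 were shared within the Adamts genes by Adamts4 and Adamts15, Adamts2 and Adamts14, and Adamts16 and Adamts18, and also 30 between subfamilies by Adam12 and Adamts17 and by Adam8 and Adamts17, whereas Adam12 and Adam19 shared 28. Adam1a and Adam1b were identical over all 33. The rest of these genes was not compared, so whether reads of this pair were divided uncertainly was not tested. The 9 Adam genes without the stretch were Adam2, Adam3, Adam4, Adam5, Adam11, Adam18, Adam22, Adam23 and Adam32.

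Which members these cells expressed was read per kilobase of annotated exon, the scale on which genes of different length can be set side by side. Averaged over the 6 libraries (SD over libraries, n = 6), Adam9 had 561 ± 153 scaled reads per kb, Adam10 had 431 ± 53.9 and Adamts14 had 375 ± 118. Adam17 followed with 262 ± 23.2, Adam19 with 217 ± 60.6 and Adamts4 with 192 ± 60.0. Each of these levels differed from the next in the order by less than the larger of their SDs. The 5 most abundant Adam genes all hold the zinc-binding stretch, and the catalytically inactive Adam23, Adam11 and Adam22 had 1.92, 4.15 and 1.00 scaled reads per kb. Adam4, also without the stretch, had 4.59. Scarce genes were found among those with the stretch too: Adam21, Adam33, Adam1b, Adam30 and Adam28 had 1.06 or less. Adamtsl5 led the Adamtsl genes with 81.8 ± 49.0. Of the 45 members, 29 had a mean of at least 10 scaled reads, 39 had a mean of at least 1 and entered the tests, and 6 were below that.

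**Figure D1:**
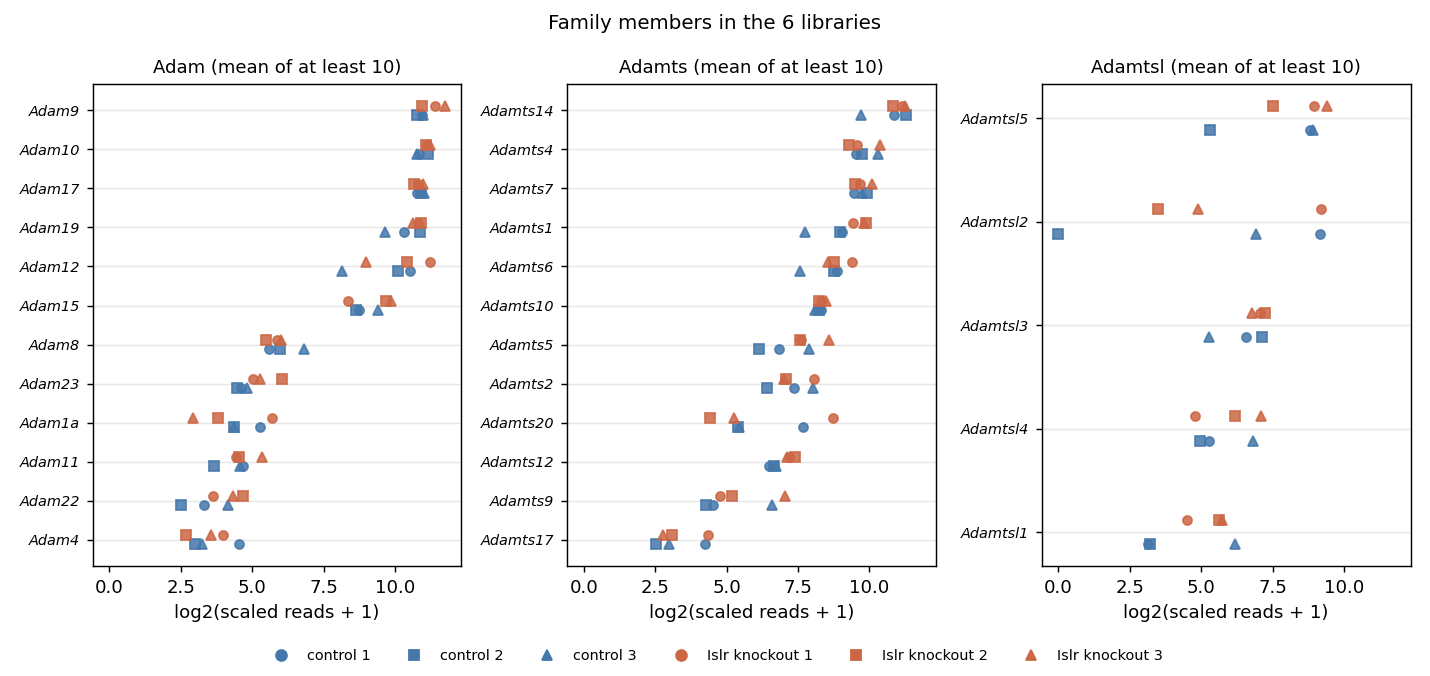
Scaled reads on a log2(value + 1) axis for the 29 members with a mean of at least 10, in 3 panels by subfamily. Each point is 1 library, coloured by labelled group and shaped by replicate number. Adam17 and Adamts10 hardly spread, whereas Adamts20, Adamtsl5 and Adamtsl2 spread over many fold within both groups.

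The main comparison asks which members differ between libraries labelled Islr knockout and control. No member passed an adjusted p of 0.05 with limma on log2(scaled reads + 1), and neither did any gene: 0 of 20344 (0.0%). At an unadjusted p under 0.05, 1 of 39 members was higher in knockout (Adamts1) and 0 were lower, beside 1.15% of all genes higher and 0.211% lower. edgeR's quasi-likelihood test and limma-voom on the whole reads also called 0 members after adjustment, and at the unadjusted level both had Adamts1 alone. That was 1 of 29 members, beside 1.14% of all genes for edgeR and 0.922% for limma-voom. DESeq2 called 0 after adjustment and had Adamts1 and Adamts15 at the unadjusted level (2 of 45 members), beside 1.16% of all genes. A limma fit with pairs by replicate number again called 0 genes (0.0%), and 6 members were higher at an unadjusted p under 0.05 (Adam9, Adam12, Adamts1, Adamts5, Adamts8 and Adamtsl5), beside 3.66% of all genes. Adamts15 alone of the 39 was lower there, beside 0.924%. With the same pairs, edgeR had 4 of 29 members at that level (Adam9, Adam12, Adamts1 and Adamts5), beside 4.28% of all genes. The 3 knockout libraries lay above the 3 controls for Adamts1, Adamts12 and Adam23 (3 of 39 members, 2.65% of all genes), and below them for 0 members (2.11% of all genes). Knockout was the higher library in all 3 pairs of the same number for 12 of 39 members, against 12.2% of all genes, and the lower in all 3 for 0 members, against 12.1%.

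By subfamily, the log2 differences (knockout minus control) of the tested genes were above 0 for 11 of 18 Adam genes with a median of 0.36, for 12 of 16 Adamts genes with a median of 0.24, and for 5 of 5 Adamtsl genes with a median of 0.71. Over all genes tested, 53.0% were above 0 and the median was 0.03. The medians of the single pairs were 0.03, 0.24 and 0.46 for Adam, 0.33, 0.28 and 0.37 for Adamts, and 0.16, 2.23 and 0.29 for Adamtsl, so the Adamtsl median rested mostly on pair 2. With 1 library left out, the Adam median was 0.05 without control 2, 0.08 without control 3 and 0.10 without knockout 3. The Adamts median was 0.13 without control 2, 0.12 without control 3 and 0.48, 0.43 and 0.39 without control 1, knockout 2 and knockout 3. The Adamtsl median was -0.03 without control 2 and 1.27 without control 3, and 0.46 with edgeR. Summed scaled reads of the Adam genes were 8934, 9484 and 7792 in controls and 11424, 10087 and 11119 in knockouts, all 3 knockouts above all 3 controls. The abundant genes that make up most of this sum each overlapped between groups. Of the 18 Adam genes tested, only Adam23 did not, at a mean of 34.3 scaled reads. The Adamts sums overlapped, at 5262, 5847 and 4437 against 6615, 5416 and 7292, with knockout 2 below control 2. The Adamtsl sums overlapped as well, at 1162, 216 and 824 against 1264, 464 and 996. No test was made on these sums.

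**Figure D2:**
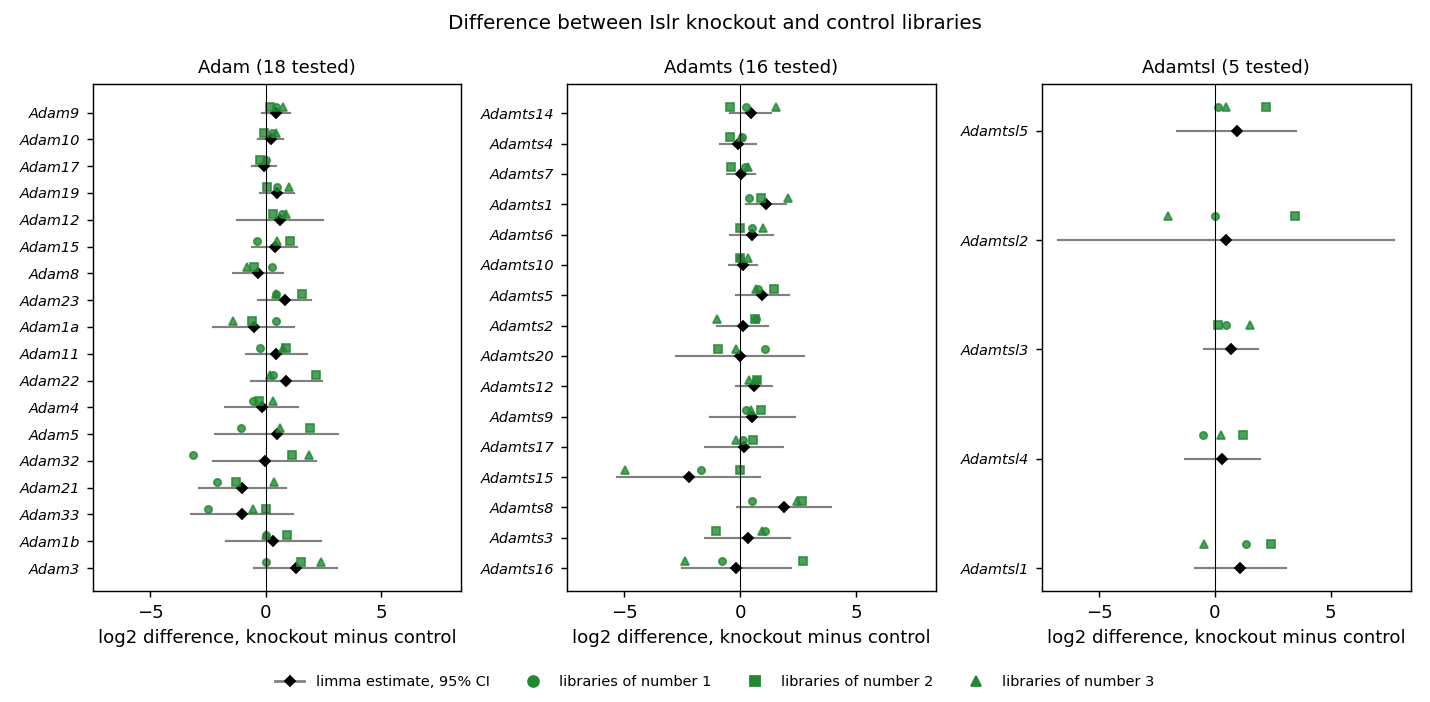
log2 difference between libraries labelled Islr knockout and control for the 39 tested members, by subfamily and from high to low mean. Diamonds and bars are the limma estimate with its 95% confidence interval (n = 3 per group), and green points are the differences of the libraries of each number. In this fit, made without the replicate number, the interval of Adamts1 excludes 0 and those of the other members include it. With the replicate number in the model, those of Adam9, Adam12, Adamts5, Adamts8, Adamts15 and Adamtsl5 exclude 0 as well. No member passed after adjustment in either fit.

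Among the membrane sheddases, the most abundant was Adam9, a broadly expressed enzyme that trims many surface proteins. Control libraries held 1973, 1763 and 2012 scaled reads of Adam9 and knockout libraries 2691, 1990 and 3424. The groups overlap by a single library, knockout 2, which was below control 3. The log2 difference was 0.46 ± 0.27 (SE), with a 95% confidence interval from -0.14 to 1.07 and an adjusted limma p of 1.0. With the replicate number in the model, the SE was 0.20 and the interval 0.01 to 0.91, with an adjusted limma p of 0.92. Adam10, the enzyme that makes the first cut in activated Notch receptors, had 1830, 2295 and 1755 in controls and 2228, 2170 and 2418 in knockouts. Its difference was 0.22 ± 0.23, and control 2 lay above 2 of the knockout libraries. Adam17, which releases TNF and ligands of the EGF receptor, varied least of these 3 genes. Its values were 1761, 1937 and 2051 in controls and 1798, 1639 and 2043 in knockouts. The difference of Adam17 was -0.07 ± 0.23 with an interval from -0.59 to 0.45.

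Adam12 and Adam19 are the meltrins, Adam12 being linked to myoblast fusion and Adam19 to the release of neuregulins. Adam12 had 1468, 1093 and 280.4 scaled reads in controls and 2387, 1357 and 511.4 in knockouts. In both groups number 1 was the highest library and number 3 the lowest, and the knockout was the higher member of each pair. The log2 difference was 0.63 ± 0.78 without the replicate number in the model and 0.63 ± 0.20 with it, where the unadjusted limma p was 0.0134 and the adjusted p 0.92. Adam19 had 1289, 1865 and 797.7 in controls and 1801, 1916 and 1582 in knockouts, a difference of 0.50 ± 0.33 in which control 2 overlapped the knockouts.

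Adam15, a widely expressed integrin-binding sheddase, had 423.3, 396.2 and 674.2 scaled reads in controls and 326.3, 828.5 and 934.1 in knockouts. Knockout 1 was the lowest library of all and knockout 3 the highest, and 20.6% of its exon bases are shared with a gene on the other strand. Adam8, known from white blood cells, was scarce at 46.7, 61.8 and 112.5 in controls and 57.0, 43.4 and 63.6 in knockouts. Its difference was -0.34 ± 0.48.

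Adam11, Adam22 and Adam23, among the 9 Adam genes without the stretch, are known from the brain as partners of LGI proteins, and all 3 were scarce. Adam23 had 23.3, 21 and 27.3 scaled reads in controls and 31.9, 64.6 and 37.7 in knockouts. The groups of Adam23 did not overlap, and the mean was 23.9 ± 3.18 in controls and 44.7 ± 17.4 in knockouts (SD, n = 3 each). Its log2 difference was 0.82 ± 0.51 with an adjusted limma p of 1.0. Adam22 had 8.9, 4.7 and 17.0 in controls and 11.4, 24.9 and 19.3 in knockouts. Adam11 had 24.4, 11.7 and 23 against 20.5, 22.1 and 39.3.

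Adam1a and Adam4 are known from sperm. Adam1a had 37.8, 19.8 and 19.6 scaled reads in controls and 51.3, 12.9 and 6.7 in knockouts, but 63.7% of its annotated exon bases also belong to other genes on the same strand, so its reads may not be its own. Adam4 had 22.2, 7.0 and 8.5 against 14.8, 5.5 and 10.9. The remaining Adam genes did not exceed 13.4 scaled reads in any library. Adam5, Adam32, Adam21, Adam33, Adam1b and Adam3 were tested, and Adam30, Adam2, Adam18 and Adam28 were too scarce, with 1 to 3 reads over all libraries.

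Adamts1, a secreted protease that cuts versican and aggrecan, had the smallest p of the 39 tested members. Controls held 531.1, 505.8 and 213.9 scaled reads and knockouts 693.6, 945.6 and 903.1. All 3 knockouts lay above all 3 controls, with means of 417 ± 176 and 847 ± 135 (SD, n = 3 each). The log2 difference was 1.12 ± 0.38 (95% interval 0.26 to 1.98) with an unadjusted limma p of 0.0161 and an adjusted p of 1.0. Over the alternatives it ranged from 0.64 to 1.49, and the lowest value of a single library left out was 0.70, without control 3. The Adamts1 differences of pairs 1, 2 and 3 were 0.38, 0.90 and 2.07. Fibro-adipogenic marker sums were 471.1, 364.8 and 1553 in controls and 374.2, 1506 and 4498 in knockouts. They were lower in the knockout of pair 1 and higher in those of pairs 2 and 3. Control 3 had the highest of these sums among the controls and the lowest Adamts1 value. The part of these markers in the Adamts1 difference was not tested. In the authors' deposited table, Adamts1 has a log2 fold change of 1.02, a p of 0.0195 and an adjusted p of 1.0.

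The other proteoglycan-cutting members had differences on both sides of 0. Adamts5 had 113.3, 69.9 and 236.1 scaled reads in controls and 191.7, 191.0 and 383.3 in knockouts, higher in each pair but with control 3 above 2 of the knockouts. The log2 difference of Adamts5 was 0.96 ± 0.51, with an interval from -0.19 to 2.11. With the replicate number in the model, its SE was 0.28 and its interval 0.32 to 1.6, with an adjusted limma p of 0.92. Adamts4 had 735.5, 846.0 and 1261 in controls and 764.4, 628.3 and 1309 in knockouts, a difference of -0.11 ± 0.34. Adamts9, which also helps move cargo in the secretory pathway, had 22.2, 18.6 and 94.6 against 26.2, 35.1 and 129.7. Both groups of Adamts9 were highest in number 3. Adamts20 had 202.2, 40.8 and 41.8 in controls and 424.4, 20.3 and 36.8 in knockouts, with number 1 far above the rest in both groups.

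Adamts8 and Adamts15 fell under the mean of 10 and are given because their values stood out when seen. Adamts8 had 13.3, 1.2 and 0.9 scaled reads in controls and 19.4, 12.9 and 9.2 in knockouts. Control 1 lay within the knockout range, and the log2 difference was 1.89 ± 0.90. Adamts15 had 2.2, 0.0 and 56.3 in controls and 0.0, 0.0 and 0.8 in knockouts, with control 3 as its only library above 2.2. The authors' deposited table gives Adamts15 a log2 fold change of -5.83, a p of 0.00355 and an adjusted p of 1.0.

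**Figure D3:**
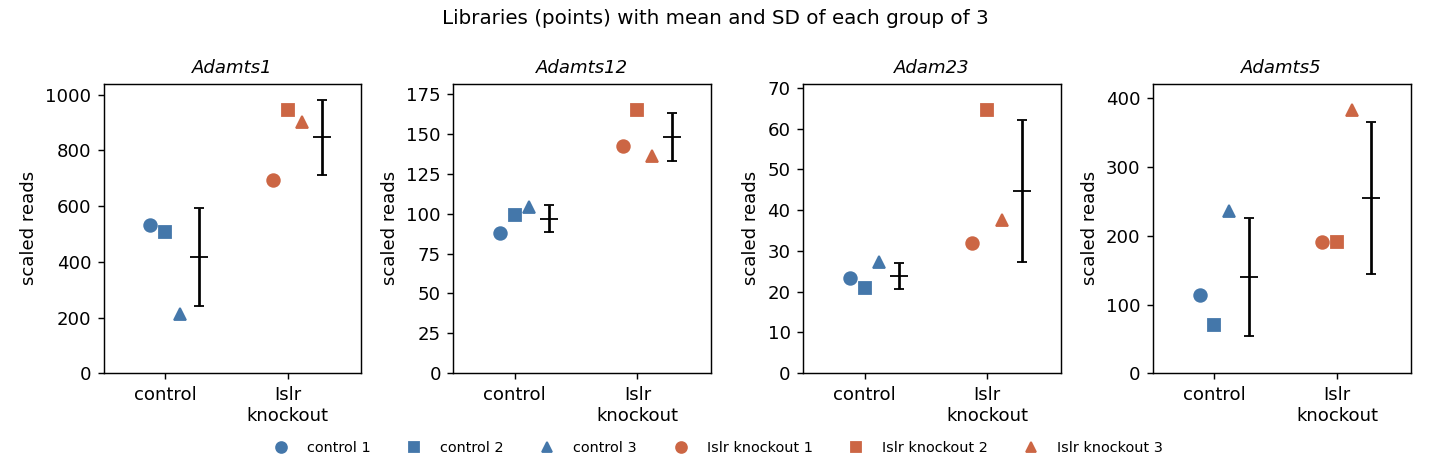
Scaled reads per library for Adamts1, Adamts12, Adam23 and Adamts5, each on its own linear axis from 0, with the mean and SD of each group of 3 in black. The knockout points of the first 3 genes lie above all control points, and in Adamts5 the highest control lies among the knockouts.

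Adamts14, Adamts2 and Adamts3 remove the amino-terminal propeptide of fibrillar collagens. Adamts14 was the most abundant Adamts gene, with 1871, 2478 and 830.1 scaled reads in controls and 2263, 1820 and 2433 in knockouts. Control 2 was its highest library and control 3 its lowest, and the log2 difference was 0.46 ± 0.39. Adamts2 had 164.4, 85.1 and 260.8 against 264.7, 132.9 and 128.1, a difference of 0.10 ± 0.49. Adamts3 had a mean of 4.25.

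Adamts7 and Adamts12 degrade cartilage oligomeric matrix protein. Adamts7 had 708.8, 954.4 and 860.8 scaled reads in controls and 815.7, 719.6 and 1082 in knockouts, a difference of 0.04 ± 0.26. Adamts12 had 87.8, 99.1 and 104.0 in controls and 142.6, 165.1 and 136.4 in knockouts. The groups of Adamts12 did not overlap, at means of 96.9 ± 8.31 and 148 ± 15.1 (SD, n = 3 each), and the log2 difference was 0.60 ± 0.34 with an unadjusted limma p of 0.110 and an adjusted p of 1.0. Its value stayed between 0.52 and 0.66 when any 1 library was left out.

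Adamts6, Adamts10 and Adamts17 act on fibrillin microfibrils or their assembly. Adamts10 was the steadiest of the Adamts genes, with 314.4, 298.3 and 275.3 scaled reads in controls and 316.0, 298.0 and 352.4 in knockouts. Adamts6 had 470.0, 434.7 and 188.4 against 666.3, 427.2 and 377.5. Adamts17 had 17.8, 4.7 and 6.8 against 19.4, 7.4 and 5.9. The log2 differences were 0.12 ± 0.26 for Adamts10, 0.49 ± 0.41 for Adamts6 and 0.17 ± 0.75 for Adamts17. Adamts16 had a mean of 3.31, and Adamts13, which cleaves von Willebrand factor, had 1 read in all.

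The Adamtsl genes encode matrix proteins that bind fibrillin or latent TGF-beta complexes. Adamtsl5 had 445.5, 38.5 and 484.1 scaled reads in controls and 496.3, 183.6 and 670.4 in knockouts. Number 2 was the lowest library in both groups. The log2 difference of Adamtsl5 was 0.95 ± 1.07. With the replicate number in the model, its SE was 0.39 and its interval 0.06 to 1.84, with an adjusted limma p of 0.92. Adamtsl2 had 577.7, 0.0 and 119.3 in controls and 588.7, 10.1 and 28.5 in knockouts, so the groups overlapped, and the difference was 0.49 ± 2.86, or -0.16 with edgeR. Adamtsl3 had 93.3, 138.7 and 37.5 against 131.2, 150.4 and 108.8, with the knockout higher in each pair. Adamtsl4, a gene of lens microfibrils, had 37.8, 30.3 and 111.7 against 26.2, 72.0 and 136.4. Adamtsl1 had 7.8, 8.2 and 71.6 against 21.7, 48.0 and 51.9, with both the lowest and the highest library among the controls.

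Some members differed between replicate numbers whatever the labelled group. In a limma F test of the 3 numbers, allowing for group, 4 of 39 members passed an adjusted p of 0.05, against 1291 of 20344 genes (6.35%). They were Adam12 (0.00649), Adamts20 (0.0192), Adamtsl5 (0.0258) and Adamts9 (0.0437), each the limma adjusted p. Adamtsl2 missed with 0.0525 and passed with edgeR (0.0467). Without control 3 the 4 members no longer passed and Adamtsl2 did, without knockout 1 only Adam12 and Adamtsl5 passed, and without knockout 3 only Adam12 and Adamtsl2 did. Adamts9 was also lost without control 1, without control 2 and with edgeR (0.0534), Adamtsl5 without control 2 and with edgeR (0.0667), and without knockout 2 Adamts5 and Adamtsl2 joined the 4. With the filter raised to a mean of 10, Adamts9 missed (0.0544) and Adamtsl2 passed (0.0453). Adam12 and Adamts20 were highest in number 1, Adamts9 in number 3, and Adamtsl5 was lowest in number 2. Across the 29 members with a mean of at least 10, the highest library was at least 2-fold above the lowest in 23, against 60.4% of all such genes.

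Muscle differentiation markers differed between the libraries too. Myog, a transcription factor of differentiating myoblasts, had 43370, 417.2 and 43261 scaled reads in controls and 37228, 1998 and 5737 in knockouts. Myh3, the embryonic myosin heavy chain, had 92418, 226.1 and 25064 in controls and 104586, 1190 and 5700 in knockouts. The order of the 6 libraries in Adamtsl2 was that of Myh3, an observation made after both were seen. The fibro-adipogenic sums given beside Adamts1 were highest in number 3 of both groups. Endothelial markers summed to 305.5, 617.6 and 420.2 in controls and 310.3, 1388 and 1255 in knockouts. Macrophage markers summed to 164.4, 134.0 and 161.9 against 98.1, 309.1 and 520.6, and Schwann cell markers to 190.0, 264.5 and 189.2 against 181.4, 601.5 and 472.9. In each of these 3 lists the sums of knockouts 2 and 3 lay above every control. Single macrophage markers did not all have that order. Ptprc, a defining gene of white blood cells, was at 0 in knockout 2 as well as in all 3 controls. It had only 13 reads over all libraries, most of them in knockout 3. Itgam had 1.1, 0.0 and 13.6 scaled reads in controls and 0.0, 1.8 and 6.7 in knockouts, highest in control 3. The part of these marker lists in the Adam, Adamts and Adamtsl values was not tested.

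**Figure D4:**
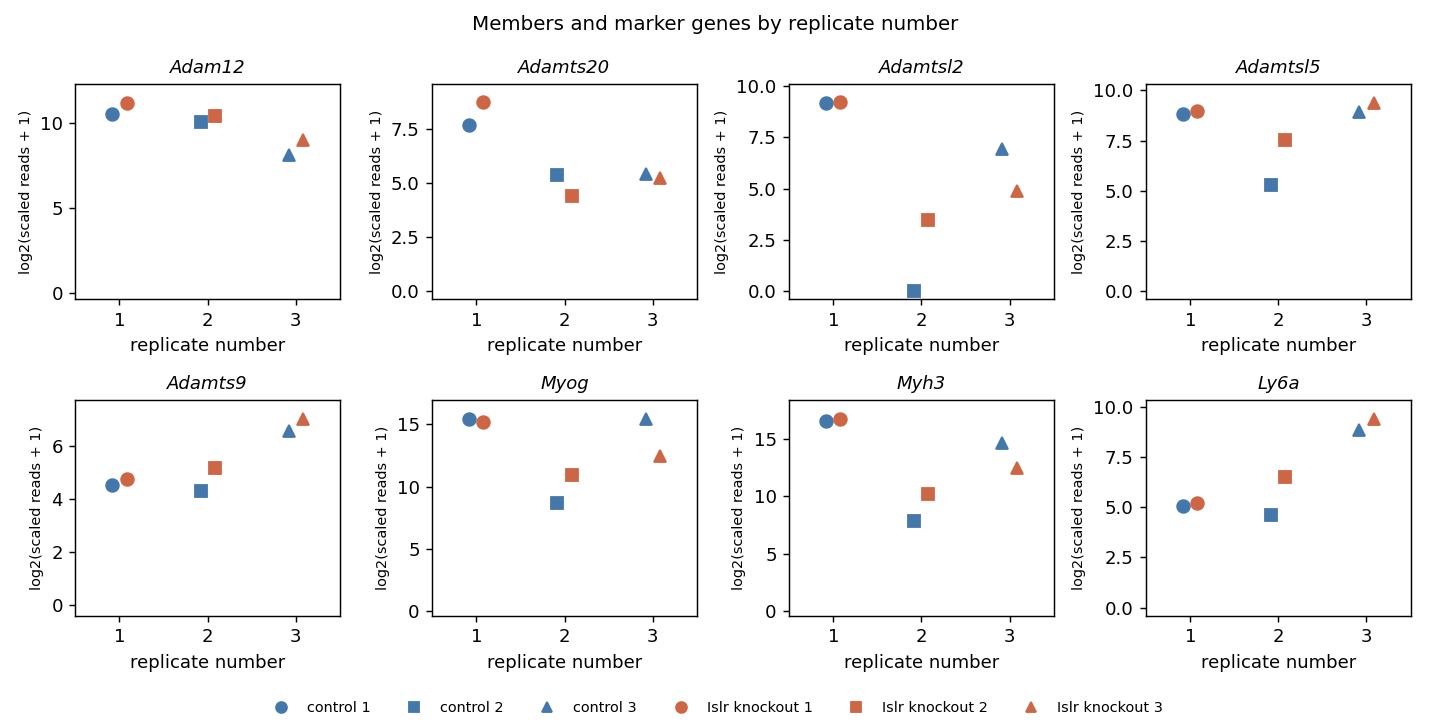
Scaled reads on a log2(value + 1) axis against replicate number for 5 members and for Myog, Myh3 and Ly6a, a fibro-adipogenic marker. Blue points are control and orange points Islr knockout libraries. Adamts20 is high in number 1, Adamtsl2, Myog and Myh3 are lowest in number 2, and Adamts9 and Ly6a are highest in number 3.

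Inhibitors, escorts and substrates of the family were read from lists of known genes. Of the inhibitors TIMP and RECK, 0 of 5 passed the test, and 4 of 5 had differences above 0 with a median of 0.65, beside 53.0% and 0.03 over all genes. Timp3, the TIMP that binds the matrix and inhibits ADAM17 and ADAMTS4, had 222.2, 228.4 and 210.5 scaled reads in controls and 326.3, 613.5 and 494.6 in knockouts. The groups did not overlap, and the log2 difference was 1.07 ± 0.31 with an unadjusted limma p of 0.00783 and an adjusted p of 1.0. Timp2, the most abundant of them, differed by 0.55 ± 0.43.

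Of the genes for trafficking and maturation of ADAM10 and ADAM17, 0 of the 12 measured passed. Of these, 8 were above 0 and the median was 0.18, beside 53.0% and 0.03 over all genes. Furin, the convertase that activates proforms, had the highest mean and differed by 0.13 ± 0.27. Rhbdf2, an iRhom that escorts ADAM17, had 236.6, 221.4 and 288.1 in controls and 277.2, 325.7 and 558.3 in knockouts, with control 3 above knockout 1.

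Of 36 shedding substrates, 0 passed, 32 were above 0 and the median was 0.45, again beside 53.0% and 0.03 over all genes. The medians of the single pairs were 0.15, 0.54 and 1.1, highest in pair 3. Csf1, the macrophage growth factor, was the most abundant at 16292 ± 6702 in controls and 24010 ± 3484 in knockouts (SD, n = 3 each), and differed by 0.65 ± 0.37. Lrp1, an endocytic receptor, had the smallest unadjusted limma p of the list, 0.0233, with a difference of 0.83 ± 0.30. Of 22 ADAMTS matrix substrates, 0 passed, 19 were above 0 and the median was 0.59, beside the same 53.0% and 0.03. In the single pairs the medians were 0.23, 0.34 and 0.50. At an unadjusted limma p under 0.05, 2 were higher in knockout and 1 was lower, beside 1.15% and 0.211% of all genes. The lower gene was the scarce Col2a1, with 25.6, 23.3 and 35.8 in controls and 5.7, 18.5 and 4.2 in knockouts. Its log2 difference was -1.71 ± 0.67. Fn1 (fibronectin) led both by abundance and by p, at 22020 ± 4173 in controls and 51221 ± 12670 in knockouts, a log2 difference of 1.21 ± 0.30 with an unadjusted limma p of 0.00283 and an adjusted p of 1.0.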

How the data were processed

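The authors' deposited table gives, for each gene, reads divided by 1 size factor per library, a signal without length correction. Per the submitters' processing notes, the authors used HISAT2 2.0.5, Trimmomatic, HTSeq, edgeR 3.18.1 and DESeq2 1.16.1, with no role stated. Genome build and strand handling are not stated there, but all 45 members lie at their GENCODE M21 positions on GRCm38. The low values gave back whole reads for 100.0% of values (tolerance 0.01 reads), with size factors from 0.8581 to 1.1948, and the deposited counts of 480 genes in a second table equal them. The authors' log2 fold changes and p-values, deposited in the same table, are quoted only where named. Dropped were 36 lines without a gene identifier and numeric start, and 12 columns of FPKM values were not used. The column taken as control 1 bears that sample's number with 2 digits exchanged.

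The main test was limma 3.58.1 (R 4.3.3, trend and robust) on the log2 of each scaled value plus 1. It covered 20344 genes whose mean was 1 or more, with Benjamini-Hochberg adjustment, since the deposited values are not counts. edgeR 4.0.16, DESeq2 1.42.0 and limma-voom on the recovered counts, other pseudocounts, filters and scalings, left-out libraries and a replicate block were alternatives. Scripts were tested on simulated data without differences between replicate numbers, so that trial cannot show how the tests perform on these libraries. Same-numbered libraries deviated together (r = 0.689, 0.633 and 0.625 over 14280 genes). The replicate block and the pair differences treat the numbers as pairs, though the labels do not say what they mark. The main fit did not use the numbers, and SEs and intervals come from it unless the replicate number is named. Members with a mean of at least 10, and members whose groups do not overlap, are named with all their values. Lists are given by their most abundant gene and smallest p, and Col2a1 was added because it went the other way. Members and lists were chosen with earlier results of these data known.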

Additional observations from a re-analysis of the deposited data

How the results depend on the processing

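No member was called for genotype under any alternative tried, and 93 genes were called when number 1 was left out of the replicate block, none of them a member. The replicate block changed no other call: 0 members passed with or without it, and Adamts1 was 1.12 in both. The Adam median was 0.03 with number 2 left out of the block and 0.05 to 0.45 with 1 library left out. The Adamts median was 0.46 with edgeR, 0.49 with limma-voom, 0.32 and 0.30 with pseudocounts 0.1 and 0.5, 0.31 with a mean of at least 10, 0.48 with edgeR and the block, 0.18, 0.39 and 0.34 with numbers 1, 2 and 3 left out of the block, and 0.12 to 0.48 with 1 library left out. The Adamtsl median went from -0.03 to 1.27 with 1 library left out. The test of replicate numbers, whose alternatives were chosen after seeing the data, called 639 genes with edgeR and 795 with a mean of at least 10, and with 1 library left out 291 to 2513 genes and 1 to 6 members. The cause of these shifts was not tested.

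Directions turned for some single genes. With numbers left out of the replicate block, Adam17 was 0.01 (number 2), Adam4 0.01 (number 1), Adamts14 -0.08 (number 3), Adamts4 0.05 (number 2), Adamts7 -0.04 and -0.10 (numbers 1 and 3), Adamts2 -0.19 and -0.17 (numbers 1 and 2), Adamts17 -0.03, Adamtsl2 -1.0 and Adamtsl4 -0.11 (number 2 each), and Adamts20 0.44 and 0.05 (numbers 2 and 3). Adamts20 was also 0.76 with edgeR and with DESeq2, 0.02 with library size scaling and 0.05 with edgeR and the block. Adamtsl2 was -0.16 with edgeR, -0.15 with DESeq2 and -0.39 with edgeR and the block. With 1 library left out, values ran from -0.10 to 1.23 for Adam12, -0.62 to 0.01 for Adam8, -1.30 to 0.08 for Adam1a, -0.47 to 0.30 for Adam4, -0.41 to 0.12 for Adamts4, -0.12 to 0.17 for Adamts7, -0.32 to 0.48 for Adamts2, -1.33 to 0.83 for Adamts20, -0.17 to 1.24 for Adamts9, -0.31 to 0.66 for Adamts17, -0.24 to 1.57 for Adamtsl5, -2.19 to 2.40 for Adamtsl2 and -0.21 to 0.96 for Adamtsl4. Depth limits the members under 10 scaled reads.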
